A study of Homo sapiens with 6 samples.

Results

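The regions described here are 1124 PRMT5 peaks of PC3 cells that overlapped no PRMT5 peak of LNCaP cells and no METTL3 peak of PC3 cells. They were chosen by the peak calls themselves. An entry of the PC3 PRMT5 list on a main chromosome (hg38) was taken when it shared no base with any LNCaP PRMT5 peak or any PC3 METTL3 peak and lay more than 1 Mb from both ends of its chromosome. They are 67.7% of the 1661 PC3 PRMT5 peaks on these chromosomes and part of 10267 peaks in the 4 lists of the series. Of the other PC3 PRMT5 peaks, 294 overlapped LNCaP PRMT5, 151 overlapped PC3 METTL3, 27 of these overlapped both, and 119 had no partner but lay at a chromosome end.

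PC3 is an established androgen-independent prostate cancer line and LNCaP an androgen-responsive one. Each gave 1 library with a PRMT5 antibody (Active Motif), 1 with a METTL3 antibody (Abcam) and 1 control, which is titled IgG and whose antibody field names a secondary antibody. The cells carried no stated genetic change or treatment and were grown in RPMI-1640 with serum. An antibody on permeabilised cells brought Tn5 transposase to the chromatin, from 100000 cells with 16 PCR cycles per library. The 6 libraries have no replicates, read depth is unknown, and a peak present in 1 list and absent from another may differ only in depth. No difference below was tested. The intervals are exact (Clopper-Pearson) 95% binomial intervals, treat each peak as independent and cover counting error only.

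PRMT5 is an enzyme that places symmetric dimethyl marks on arginines of histones and of splicing proteins, together with its partner WDR77. At chromatin it is best known as a repressor acting through histone arginines, and in the cytoplasm as the enzyme that prepares Sm proteins for the spliceosome. METTL3 writes N6-methyladenosine on RNA.

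Promoters under the peaks are shown first, because a short motif recurred in them, although they concern only 52 of the 1124 peaks. The 6 printed are those with the highest fold among genes named below whose promoter, from 250 bases before to 50 bases after the listed start, shared at least 1 base with a PC3-only peak. The sequences are from RefSeq (GRCh38.p14), read 5′ to 3′ along the gene, and capitals mark the 6 letters CACGTG, the palindromic E-box. They lie at chr11:62771146-62771445 (plus strand), chr21:37366523-37366822 (plus strand), chr3:49786493-49786792 (minus strand), chr15:75335813-75336112 (plus strand), chr12:120904309-120904608 (minus strand) and chr19:16111639-16111938 (plus strand). Counted back from the start, with no base numbered zero, the E-box began at -132 in TAF6L, at -179 in DYRK1A, at -188 and -138 in IP6K1, at -45 in COMMD4 and at -65 and -46 in SPPL3. The RAB8A promoter held none.
TAF6L: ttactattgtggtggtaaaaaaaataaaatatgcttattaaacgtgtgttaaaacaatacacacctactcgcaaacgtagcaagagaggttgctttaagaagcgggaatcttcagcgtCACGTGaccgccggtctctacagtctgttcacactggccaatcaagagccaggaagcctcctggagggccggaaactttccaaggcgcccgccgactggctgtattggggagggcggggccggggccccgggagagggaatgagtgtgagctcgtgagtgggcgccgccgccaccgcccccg
DYRK1A: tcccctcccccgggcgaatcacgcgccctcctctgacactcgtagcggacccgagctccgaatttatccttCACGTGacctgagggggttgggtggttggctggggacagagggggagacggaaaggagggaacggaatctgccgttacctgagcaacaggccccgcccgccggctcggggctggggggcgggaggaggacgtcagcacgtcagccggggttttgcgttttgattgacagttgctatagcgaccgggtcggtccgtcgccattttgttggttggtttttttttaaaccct
IP6K1: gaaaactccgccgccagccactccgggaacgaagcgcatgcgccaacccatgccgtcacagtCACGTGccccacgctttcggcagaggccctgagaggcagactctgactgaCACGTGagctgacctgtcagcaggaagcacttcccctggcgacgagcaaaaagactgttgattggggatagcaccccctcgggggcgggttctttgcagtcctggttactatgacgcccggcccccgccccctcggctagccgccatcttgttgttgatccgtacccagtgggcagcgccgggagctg
COMMD4: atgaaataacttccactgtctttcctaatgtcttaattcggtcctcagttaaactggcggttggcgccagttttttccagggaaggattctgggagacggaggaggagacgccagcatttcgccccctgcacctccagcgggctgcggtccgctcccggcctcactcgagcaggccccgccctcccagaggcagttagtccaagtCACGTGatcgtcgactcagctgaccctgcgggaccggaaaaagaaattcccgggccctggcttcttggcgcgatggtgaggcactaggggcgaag
SPPL3: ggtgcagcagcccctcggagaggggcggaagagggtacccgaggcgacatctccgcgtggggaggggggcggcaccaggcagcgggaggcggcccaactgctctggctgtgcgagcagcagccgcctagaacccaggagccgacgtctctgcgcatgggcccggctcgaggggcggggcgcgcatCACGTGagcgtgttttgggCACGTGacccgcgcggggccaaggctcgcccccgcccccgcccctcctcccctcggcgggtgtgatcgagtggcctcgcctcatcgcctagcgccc
RAB8A: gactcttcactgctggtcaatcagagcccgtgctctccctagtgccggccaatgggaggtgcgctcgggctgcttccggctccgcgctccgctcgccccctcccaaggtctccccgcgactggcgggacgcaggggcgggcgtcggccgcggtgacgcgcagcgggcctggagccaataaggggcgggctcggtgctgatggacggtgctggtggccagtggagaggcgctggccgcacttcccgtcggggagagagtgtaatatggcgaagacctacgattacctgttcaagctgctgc

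Each of these 6 promoters carried a PC3 PRMT5 peak and lay at least 99 kb from every LNCaP PRMT5 peak. The fold of a peak, the authors' caller's ratio of signal over the control, was 15.3 at TAF6L, a subunit gene of a histone acetyltransferase complex, and 12.4 at DYRK1A, a kinase gene. It was 11.6 at IP6K1, which encodes an inositol phosphate kinase, 10.6 at COMMD4, 10.0 at RAB8A, a gene of vesicle traffic, and 9.41 at SPPL3, which encodes a protease of the Golgi membrane. The peak summit lay 39 bp from the E-box at DYRK1A, 2 bp at IP6K1 and 5 bp at SPPL3, but 288 bp at TAF6L and 184 bp at COMMD4.

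Among promoters under PC3-only peaks, the E-box was present more often than among promoters at large. In all, 61 distinct promoters of 54 protein-coding genes shared a base with a PC3-only peak, and 30 of them, 49.2% (95% exact binomial interval 36.1 to 62.3), held CACGTG. Of the 21986 distinct promoter sequences of protein-coding genes, 8.27% held it. Promoters under peaks shared with LNCaP PRMT5 held it in 87 of 114 cases, 76.3% (67.4 to 83.8). The 30 promoters belong to 29 genes and 28 peaks, since neighbours such as PI4KA and SNAP29 read the same peak in opposite directions. The 61 belong to 52 peaks. The median distance from the summit to the nearest E-box was 64 bp, and 14 of the 30 were within 50 bp. A match of letters is a description and shows no factor at the site.

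The E-box was unevenly placed by distance to LNCaP peaks. Of the 47 promoters with no LNCaP PRMT5 peak within 10 kb, 30 held it, 63.8% (48.5 to 77.3). Of the 14 promoters with such a peak within 10 kb, 0 held it (interval 0 to 23.2%). The 14 promoters belong to 9 genes and 9 peaks, with several entries each for DPP9, CTDNEP1 and ELP5, so they are few independent sites, and the split was made after the values were seen. The longer letters GTCACGTG, searched after the values were seen and overlapping the E-box, were held by 25 of the 61 promoters, 41.0%, by 65.8% of those under shared peaks and by 3.07% of all promoters.

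Other motifs stood closer to their share of all promoters than the E-box did. All were searched on both strands. The GC box GGGCGG was found in 65.6% of the 61 promoters (52.3 to 77.3) against 56.3% of all promoters. CCAAT was found in 44.3% (31.5 to 57.6) against 34.7%. The ETS letters CGGAAG were found in 29.5% (18.5 to 42.6) against 23.7%, and the TEAD letters GGAATG in 13.1% against 12.2%. The AP-1 letters TGANTCA occurred in 9.84% (3.70 to 20.2) against 6.16%, the cAMP response element TGACGTCA in 4.92% against 2.25%, and the telomere unit TTAGGG in 11.5% against 8.82%. Each of these 7 intervals contained the share of all promoters, but with 61 promoters they are wide. All 7 shares lay above that of all promoters, and the intervals cannot tell a modest difference from none. The median G and C content was 63.7% under PC3-only peaks and 62.3% in all promoters, with medians of 24 and 21 CpG per promoter.

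**Figure D1:**
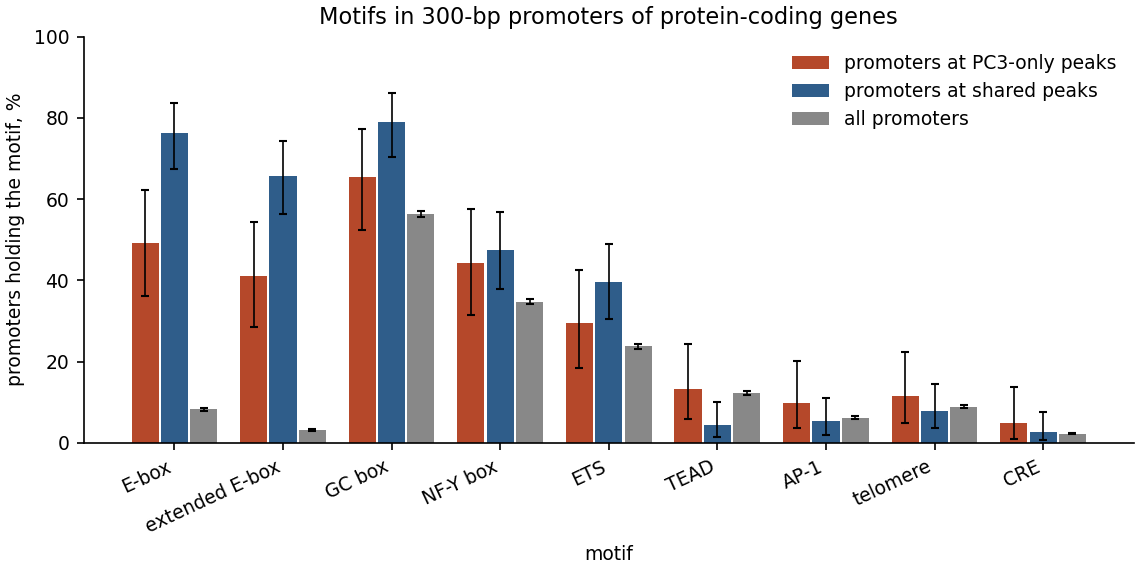
Percent of 300-bp promoters holding each motif on either strand (vertical axis, bars with exact 95% binomial intervals), for the 61 promoters under PC3-only peaks, the 114 under peaks shared with LNCaP PRMT5 and all 21986 promoters; the CCAAT motif is labelled NF-Y box. The E-box stands at 49.2%, 76.3% and 8.27% in these groups, while the other motifs, apart from the extended E-box, lie closer together.

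The PC3-only peaks were mostly of middling fold, and few were strong. Their fold ran from 1.60 to 23.9 with a median of 5.89, equal to the median of all PC3 PRMT5 peaks, and 50% of them lay between 5.01 and 6.77. As PC3-only peaks are 67.7% of that list, likeness to it here and below is partly built in. The median of the 214 peaks shared with LNCaP away from chromosome ends was 6.0, and that of the 118 peaks overlapping PC3 METTL3 alone was 6.18. The upper end differed more than the centre. A fold of at least 10 was reached by 34 PC3-only peaks, 3.02% (2.1 to 4.2), by 41 shared peaks, 19.2% (14.1 to 25.1), and by 7.10% of all PC3 PRMT5 peaks. The −log10 q of the caller had a median of 4.33 in PC3-only peaks and 8.57 in shared peaks. Since the rule rests on which peaks passed the caller in other lists, these values describe the groups and were not tested.

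PC3-only peaks were narrower than shared ones and close to the whole list. The median width was 213 bp, against 231 bp for all PC3 PRMT5 peaks, 308 bp for shared peaks and 261 bp for those overlapping PC3 METTL3, and 293 of them, 26.1%, were at most 170 bp wide, close to the smallest width in the list, 164 bp. Of all PC3 PRMT5 peaks 21.3% were that narrow, and of shared peaks 5.61%. The 1124 folds took only 621 different values, and 39 peaks had the same fold of 5.89. The widest, of 1700 bp at chr12:132156908-132158607, had a fold of 5.01 and lay 12.8 kb from NOC4L. Another, of 1276 bp and fold 10.3, lay 37.5 kb from MCFD2.

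**Figure D2:**
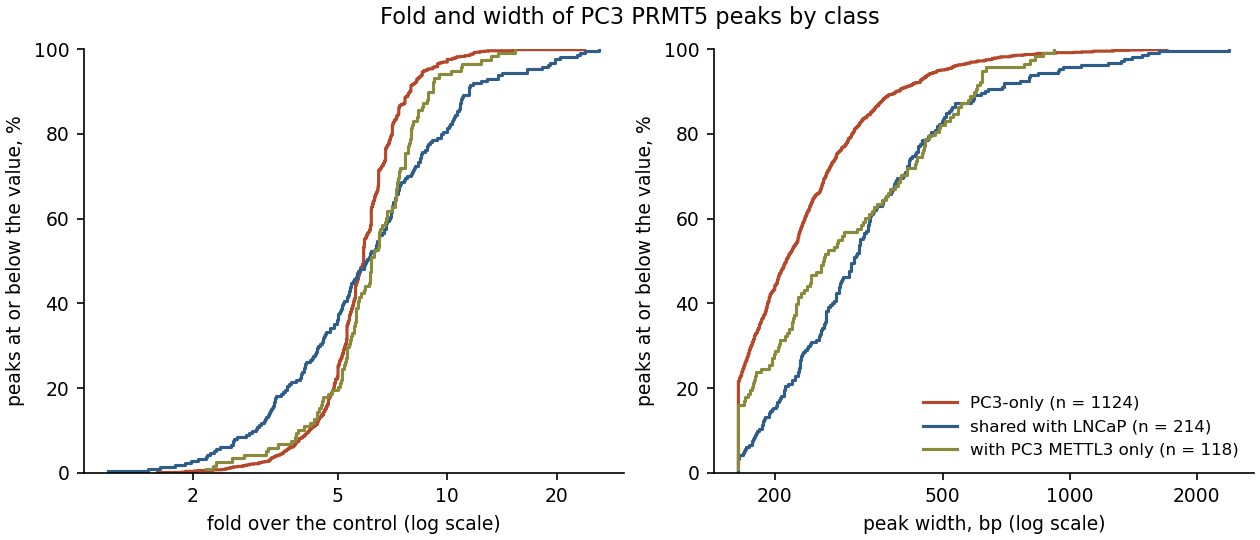
Cumulative percent of peaks (vertical axis) by fold over the control (left, log scale) and by width in bp (right, log scale) for PC3-only peaks, peaks shared with LNCaP PRMT5 and peaks overlapping PC3 METTL3 alone. The fold curves of PC3-only and shared peaks cross near their medians of 5.89 and 6.0, and the width curve of PC3-only peaks lies to the left, with a median of 213 bp.

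Most PC3-only peaks lay away from gene starts. A start was the one listed in the promoter table, or either end of the gene for the genes without an entry there (79.1% of the 20033 protein-coding genes have one). A summit within 3 kb of a start was found in 240 of 1124 peaks, 21.4% (19 to 23.9), against 24.4% of all PC3 PRMT5 peaks. Among shared peaks it was 120 of 214, 56.1% (49.1 to 62.8), and among peaks overlapping PC3 METTL3 alone 4 of 118, 3.39% (0.931 to 8.45). Close to the start the gap was wider, with 7.38% of PC3-only and 45.8% of shared summits within 0.5 kb. Of 161 PC3-only summits within 3 kb of a start with known strand, 83 lay upstream and 78 downstream, at a median distance of 730 bp.

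More of the remaining PC3-only peaks lay inside genes than outside. Outside the 3-kb windows 495 summits, 44.0% (41.1 to 47.0), lay between the ends of a protein-coding gene. The share was 40.3% of all PC3 PRMT5 peaks, 17.8% of shared peaks and 46.6% of peaks overlapping PC3 METTL3 alone. Another 389 PC3-only summits, 34.6%, lay outside such genes. Of all 1124, 146, 13%, were both outside genes and over 50 kb from a start. The share at starts moved little with fold. It was 17.4% among the 281 PC3-only peaks of lowest fold and 22.8% among the 281 of highest fold, with overlapping intervals (13.2 to 22.4 and 18 to 28.1). In the 54 shared peaks of lowest and the 54 of highest fold the shares were 38.9% and 74.1% (25.9 to 53.1 and 60.3 to 85.0).

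**Figure D3:**
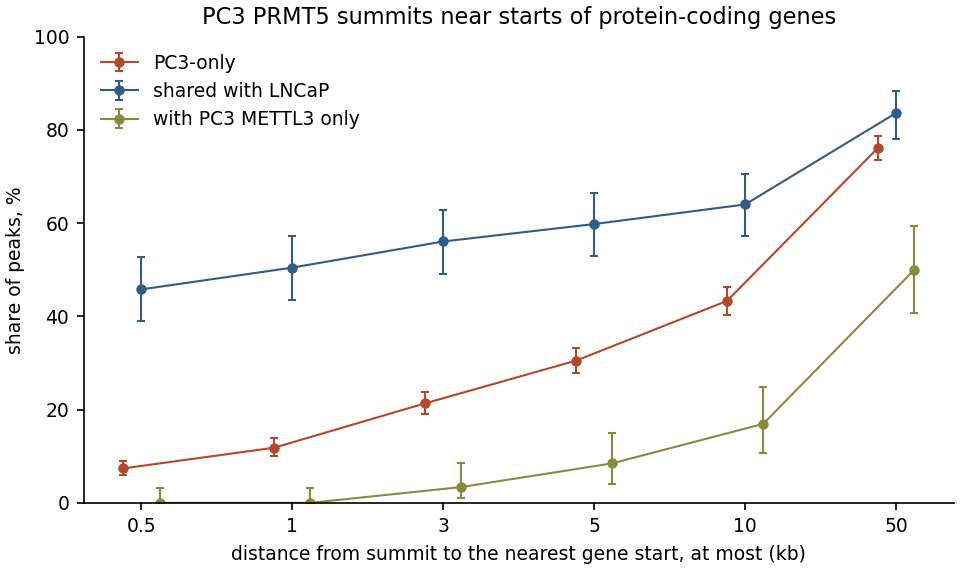
Share of summits (vertical axis, percent with exact 95% binomial intervals) within 0.5 to 50 kb of the nearest start of a protein-coding gene (horizontal axis, steps not to scale) for PC3-only peaks, peaks shared with LNCaP and peaks overlapping PC3 METTL3 alone. At 3 kb the shares are 21.4%, 56.1% and 3.39%.

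Of the 12 strongest PC3-only peaks, 11 are described here, and they stood at or near genes of differing roles. PPP1R15A, which encodes a regulatory subunit that directs a phosphatase to the translation factor eIF2, held a peak of fold 15.3 and width 1262 bp (chr19:48874587-48875848), 2.88 kb into the gene. The peak at TAF6L also lies on the overlapping gene TMEM223. A peak of fold 15.2 inside ODAD3 was 5.90 kb from the start of RGL3. Peaks of fold 13 and 12.6 lay inside GRAMD1B, which encodes a cholesterol transfer protein, 44.6 kb from its nearest end, and inside CAPN2, a calpain protease gene, 19.1 kb from its start. The peak at AMDHD2, an enzyme gene of amino sugar breakdown, had a fold of 12.3, and the one at DVL2, a Wnt signalling gene, 11.8. NPEPL1 and TNPO2, a nuclear import gene, had peaks of fold 11.9 and 11.8 before their listed starts, by 580 and 508 bp. The most isolated of these, of fold 11.9 (chr5:121055117-121055308), was 524 kb from the nearest start, that of PRR16.

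The word only refers to overlap, and not every PC3-only peak stood far from an LNCaP peak. An LNCaP PRMT5 peak lay within 1 kb of 42 of them, 3.74%, within 10 kb of 141, 12.5% (10.7 to 14.6), and within 100 kb of 330, 29.4%. Among the nearest were those inside MLXIP (fold 5.89) and BAX (5.89), 19 and 110 bp away. On the other side of the rule, the smallest overlaps included 7 bp at MLXIP (fold 7.10 in PC3 and 5.11 in LNCaP) and 56 bp at VPS26C (4.89 and 5.57). At chromosome ends, the PC3-only peaks nearest the limit, on chromosomes 8, 12 and 17, lay 1.01 to 1.03 Mb from an end with folds of 1.91, 3.16 and 3.8. The nearest left out, on chromosomes 4 and 17, lay 0.976 to 0.980 Mb from an end with folds of 2.21, 5.25 and 5.37.

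The LNCaP METTL3 list, which the rule did not use, covered 7 of the 1124 peaks, 0.623% (0.251 to 1.28). It covered 2.23% of all PC3 PRMT5 peaks and 8.88% of shared peaks (5.43 to 13.5). Of the peaks overlapping PC3 METTL3 alone it covered 1 of 118, 0.847% (0.0215 to 4.63). The rule had removed every peak touching LNCaP PRMT5 or PC3 METTL3, so the low PC3-only share may be partly set by it. None of the 7 PC3-only summits was within 3 kb of a protein-coding start. The highest, of fold 10.0, lay inside KIF26B, and the others lay inside KLHL29 (5.37), EGFR, the growth factor receptor gene (5.42), HIPK2 (3.26) and OGDHL (2.48), 143 kb from CCND1 (4.45) and 42.3 kb from TMEM121 (4.46).

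Most PC3-only peaks stood alone at gaps of 10 kb, but not at gaps of 100 kb. With gaps of at most 10 kb joined, 797 of the 1124 had no other within reach, 327, 29.1%, lay in 114 groups of at least 2, and 38 of these groups held 3 or more, 175 peaks in all. Groups of 8 peaks lay on chromosome 16, from upstream of ATP6V0C to AMDHD2, and on chromosome 19 over the start and body of DPP9, a dipeptidyl peptidase gene. The first spanned 25.1 kb with folds of 3.91 to 12.3 and a median of 7.27, and in it stood a shared PC3 peak of fold 2.64 and 2387 bp with LNCaP PRMT5 peaks of 7.52 and 9.96 on it. The second spanned 13.1 kb with folds of 4.52 to 7.02 and a median of 5.35, and the nearest LNCaP PRMT5 peak, of fold 5.41, lay just beyond its end. Groups of 7 lay at RAD9A and PPP1CA on chromosome 11 (5.49 to 8.66), at CYP27B1, METTL1 and EEF1AKMT3 on chromosome 12 (5.30 to 8.53), and at GALNS and TRAPPC2L on chromosome 16 (3.96 to 7.13). The spans of the DPP9 and METTL1 groups held no LNCaP PRMT5 peak, and those of the other 3 held 1 or 2. A shared PC3 peak lay within 10 kb of 101 PC3-only peaks, 8.99%, and 51 of the 214 shared peaks, 23.8%, had a PC3-only peak within 10 kb. Peaks of 1 group lie close together on the same DNA and are not independent of each other. With gaps of 100 kb joined, 540 peaks stood alone and 584, 52.0%, lay in groups of at least 2. The largest group then held 24 peaks over 512 kb near the start of chromosome 1, from AGRN to SSU72, with a median fold of 4.58. With these gaps 4 groups held 10 peaks each, those at GALNS, ITGA3 and DPP9 and one from DHPS to CALR on chromosome 19. The groups with 10-kb gaps were picked out after their values were seen.

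**Figure D4:**
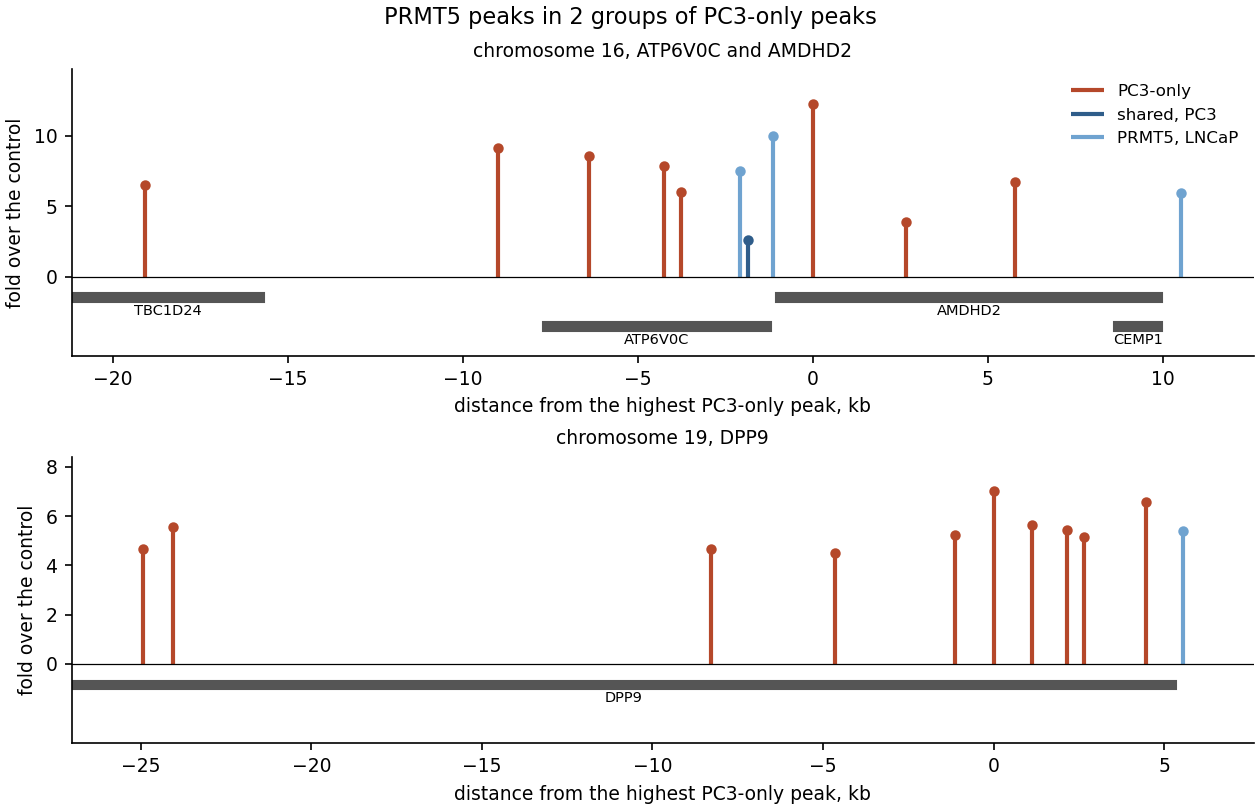
PRMT5 peaks in the groups at ATP6V0C and AMDHD2 (top) and at DPP9 (bottom, with 2 PC3-only peaks farther into the gene): each line marks a peak, its height is the fold over the control of its own line (vertical axis) and the horizontal axis is the distance in kb from the highest PC3-only peak; bars below are genes. PC3-only peaks stand on both sides of the shared and LNCaP peaks where ATP6V0C and AMDHD2 meet, the highest at fold 12.3, and on 1 side of the LNCaP peak at DPP9; folds of the 2 lines come from separate lists and their heights are not comparable.

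The peaks were spread unevenly over the chromosomes. Chromosome 19 held 154, 13.7% of them, or 2.63 per Mb, chromosome 17 held 120, and chromosome 1 held 113, whereas the average was 0.364 per Mb. The share on chromosome 19 was near that of other PC3 PRMT5 peaks, since it held 14% of the shared peaks and 187 of the 1456 PC3 PRMT5 peaks away from ends. Set against gene number, the average was 5.61 peaks per 100 protein-coding genes. Chromosomes 10, 14, 17, 19 and 21 had 11.2, 10.6, 10.3, 10.6 and 13.4, and chromosomes 9, 22 and X had 1.80, 1.77 and 1.18. Shared peaks were also dense on chromosomes 14, 19 and 21, with 1.82, 2.07 and 2.09 per 100 genes against 1.07 in all. Chromosomes 10 and 17 lay above that average too, with 1.499 and 1.28. Of the PC3 PRMT5 peaks away from ends, 77.4% were PC3-only on chromosome 10 and 85.7% on chromosome 17, against 77.2% over all chromosomes. The shared peaks of chromosome 9 were 11, near the 14 PC3-only ones, so PC3-only peaks made up 51.9% of the PC3 PRMT5 peaks there away from ends, against 77.2% over all chromosomes. No PC3-only peak lay on chromosome Y. Within chromosome 10, 30 of 82 fell between 75 and 80 Mb, a stretch with 22 protein-coding genes, 1 shared peak and 44 PC3 METTL3 peaks, and 58 of the 154 on chromosome 19 fell between 10 and 15 Mb. DNA copy number of the lines was not measured, and its part in this spread was not tested.

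**Figure D5:**
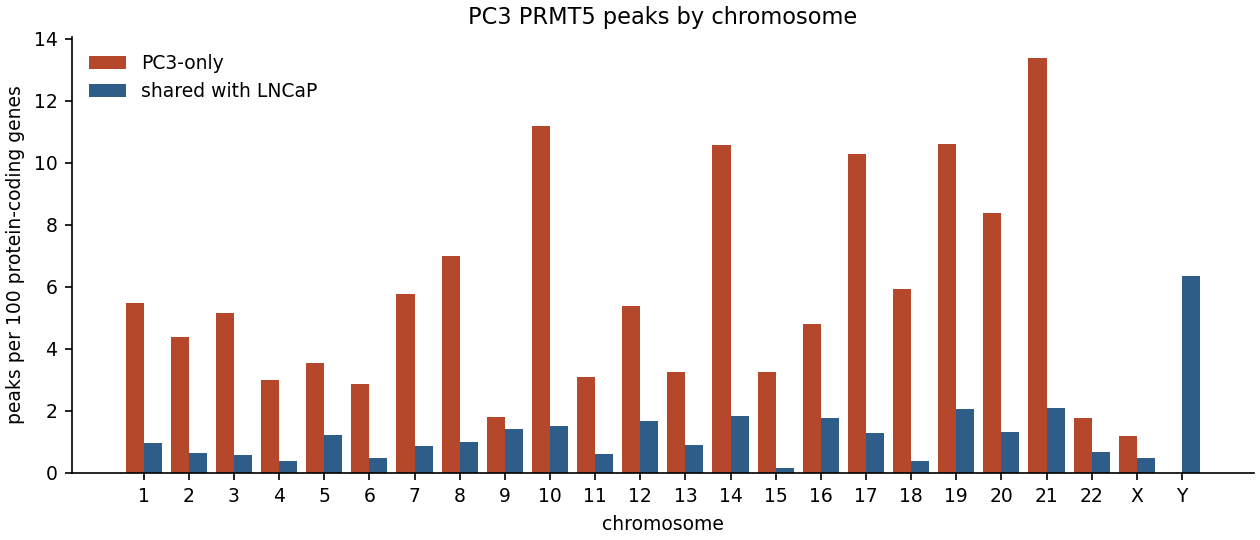
PC3-only peaks and peaks shared with LNCaP (bars) per 100 protein-coding genes (vertical axis) on each chromosome (horizontal axis). PC3-only peaks are densest on chromosomes 21, 10, 19, 14 and 17, at 10.3 to 13.4, and sparse on 9, 22 and X, at 1.18 to 1.80; chromosome Y has 4 shared peaks and no PC3-only peak.

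A PC3-only summit lay within 3 kb of the start of 230 protein-coding genes, 1.15% of all 20033. A listed start was at hand for 163 of them, and the others were counted by either gene end, which may not be the start. Of the 230 genes 189 had no other PRMT5 peak at the start in either line, 30 also had a shared peak, and 41, 17.8%, had a separate LNCaP PRMT5 peak at the start, against 1.72% of all protein-coding genes. Those 41 were 11.9% of the 345 genes with an LNCaP PRMT5 peak at the start. In all 34 genes had at least 2 PC3-only peaks.

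Behind the genes already named, the strongest start peaks belonged to genes of varied roles, each without an LNCaP PRMT5 peak at the start unless stated. PDE4A, a cAMP phosphodiesterase gene, had a fold of 10.0. SAE1, a subunit gene of the SUMO-activating enzyme, had a fold of 9.41, SH3TC1 9.19 and ATP6V0C, which encodes the membrane ring of the vacuolar proton pump, 9.12 and 8.53. RDH5, a retinol dehydrogenase gene, had 8.83, and PHF20, which encodes a reader of methylated histones, 8.59. RAD9A, a DNA damage checkpoint gene, had 3 peaks, the highest of fold 8.66, beside an LNCaP peak of 8.83. METTL1, which encodes a tRNA methyltransferase, and its neighbour CYP27B1, the enzyme gene of vitamin D activation, shared a peak of 8.53. Neither has a listed start, and the peak lay 119 bp from 1 end of METTL1, which may not be its start. Another PC3-only peak, of fold 7.95, lay at the other end of METTL1. NHERF2, a scaffold gene, had a peak of fold 8.53, as did a locus with the symbol LOC124902693. SAE1 and LOC124902693 also have no listed start and were counted by either end. AMDHD2 and DVL2 had LNCaP peaks of up to 9.96 and 26.0 at the start.

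Of 745 genes in 22 lists, 28 had a PC3-only peak at the start, 3.76%, against 1.15% of all protein-coding genes. The lists were written with earlier results of these data known, so their counts are descriptions. Genes without a listed start were counted by either end, among them ATP6V1A, PHLDA3, CCN1, ITGA3 and GFAP. The largest count was among genes of lysosomal enzymes, membrane proteins and the proton pump, with 9 of 51, 17.6%. Of the same 51 genes, 12 had a shared peak and 18 an LNCaP PRMT5 peak at the start. The 9 included ATP6V0C, LAMP1, GALNS, ATP6V1A, MCOLN1, ATP6V0B and GRN, and their median highest fold was 6.41. An LNCaP PRMT5 peak also lay at the start in 6 of the 9, but not at ATP6V0C or at ATP6V1A, a catalytic pump subunit gene (fold 6.41). LAMP1, a major lysosomal membrane protein gene, had PC3-only peaks of fold 7.65, 7.36 and 5.60 beside a shared peak of 16.5 in PC3, and LNCaP peaks of up to 6.58. GALNS, a lysosomal sulfatase gene, had PC3-only peaks of 7.13 and 3.96 beside an LNCaP peak of 29.8, and MCOLN1, the lysosomal calcium channel gene, had 6.21 beside 17. None of 45 genes of mTORC1 control and autophagy had a PC3-only peak at the start, and 10 had an LNCaP PRMT5 peak. Of all protein-coding genes 1.15% had a PC3-only peak there, so a list of this size would often hold none. The share with an LNCaP PRMT5 peak was 1.72%.

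Of 28 NF-kB and cytokine genes, 3 had a PC3-only peak at the start, 10.7%, against 1.15% of all protein-coding genes. None had a shared or LNCaP PRMT5 peak there. As only 1.72% of all protein-coding genes had an LNCaP one, a list of this size would often hold none. The 3 genes were ICAM1, an adhesion molecule gene, with a fold of 8.46 at 538 bp into the gene, CXCL8, which encodes interleukin-8, with 7.36 at 86 bp, and NFKBIA, the NF-kB inhibitor gene, with 6.29 and 5.74. The CXCL8 promoter held no E-box. Among 32 p53 target and apoptosis genes, 3 had one, CDKN1A, a cell cycle inhibitor gene (6.44), BAX (5.89, beside a shared peak of 11.5 and an LNCaP peak of 21.2) and PHLDA3 (3.81). PHLDA3 has no listed start, and its peak lay 2429 bp outside 1 end of the gene, which may not be the start. Of 34 AP-1 and immediate early genes, 2 did, the phosphatase gene DUSP1 (5.92, beside a shared peak of 11) and ZFP36L1 (5.00). CCN1, a matrix protein gene and target of TEAD factors, had a peak of 6.14 at 220 bp from the gene, the only one among 20 Hippo and TEAD targets. CALR, a chaperone gene, was the only one of 35 heat shock and unfolded protein genes (4.49, beside an LNCaP peak of 10.6).

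Of 34 SR and hnRNP splicing regulators, 2 had a PC3-only peak at the start, KHDRBS1, the gene of the RNA-binding protein Sam68 (8.38), and HNRNPM (5.01), and of 38 spliceosome core genes 2 did, SNRPE, an Sm protein gene (5.91), and the helicase gene DDX5 (3.91). The promoters of KHDRBS1 and HNRNPM held the E-box, at -248 and -225 and at -42. So did those of the deacetylase gene SIRT1 (5.78), at -123 and -44, and of RPL13A (5.92), at -221, which was the only one of 55 ribosomal protein genes. SIRT1 and HDAC7 (6.31) were the 2 of 51 chromatin regulators. ITGA3, an integrin gene, was the only one of 37 basal and mesenchymal genes (5.51), and GFAP, a glial gene, the only one of 32 markers of other lineages (6.14 and 5.30). In 10 lists no gene had one. Besides mTORC1 and autophagy these were the arginine methyltransferases and methylosome, the m6A machinery, NRF2 targets, cell cycle, hypoxia and glycolysis, cholesterol and lipid synthesis, DNA repair, luminal and androgen-regulated genes and the interferon response. At the share of 1.15% over all protein-coding genes, lists of these sizes would often hold none.

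The genes of the assayed proteins and of WDR77 had no PC3-only peak near them. The nearest one to PRMT5 lay 1194 kb away, and to METTL3 1029 kb. The nearest PC3 PRMT5 peak of any kind to WDR77 was 1101 kb away. JUNB and IER2, immediate early genes, had PC3-only peaks 2.57 and 5.80 kb from the gene (4.93 and 6.77), not at the start. A PC3 PRMT5 peak that was not PC3-only, of fold 5.92, lay inside IER2. At SNRPA, which encodes a U1 particle protein, the start peak was shared between the lines (26.2 in PC3 and 2.98 in LNCaP), and the nearest PC3-only peak was 159 kb away. SLC44A2, a choline transporter gene, had PC3-only peaks of 5.89, 6.77 and 6.36 in its body and none within 3 kb of its start. At ATP6V1A, EAPP, NAA50 and SNAP47, among others, a PC3 METTL3 peak also lay at the start without touching the PC3-only peak. The rule had removed every peak touching PC3 METTL3, so the number of such genes is partly set by it.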

How the data were processed

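The data were 4 lists of peaks in narrowPeak layout, 1 per antibody and line, with 1 library per group and no replicates. Each list is named for its antibody versus its line's control. The submitters' processing notes name MACS2 2.1.0 for peaks, Bowtie 1.1.1, Trimmomatic 0.33, ChIPseeker, bcl2fastq 2.17 and hg38. The sources used here do not give how duplicates were handled, reads shifted or thresholds set. The authors deposited for each peak a score (10 times the −log10 q as a whole number, not used further), a fold, which is a ratio over the control, and the −log10 of p and q. These are the caller's values and were used for description and filtering inside 1 list. No q in the PC3 PRMT5 list was above 0.0495.

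Of 1721 PC3 PRMT5 entries 60 lay off chromosomes 1 to 22, X and Y. Overlap meant at least 1 shared base. Genes came from RefSeq tables of GRCh38.p14, whose primary coordinates are those of hg38. The promoter table lists starts for 15842 of 20033 protein-coding genes and none on 1 chromosome. Genes without an entry were represented by both ends, as the strand is not in the gene table. Exons, introns and UTRs were not annotated, and no genome sequence was used. Motifs were sought in promoters only, counting identical sequences once. Named peaks were the 12 of highest fold, the widest, those nearest each limit and the largest groups. Named genes were the 25 with the highest peak at the start, up to 6 per gene list by fold and 9 fixed genes, and 2 more of the lysosomal list were named beyond that rule. A few items that these rules select are not reported here. The members and lists were chosen with earlier results of these data known. Overlap and distance routines were tested on simulated data. Python 3.11.15, pandas 2.3.3 and scipy 1.17.1 were used. No significance test was made.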

Additional observations from a re-analysis of the deposited data

How the results depend on the processing

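The number of PC3-only peaks stayed within 1.5 times of 1124 under all 8 alternatives, from 872 with a fold of at least 5 to 1243 with no limit at chromosome ends. Asking for 50% of a peak to be covered gave 1202, and widening partner peaks by 1 kb gave 1055. The share of peaks at a gene start, 21.4%, became 11.8% with a window of 1 kb, 30.5% with 5 kb, 31.8% with genes of all types and 26.3% with either gene end, and the share inside genes, 44.0%, became 50.9% and 37.5% with windows of 1 and 5 kb. Each of these follows from how wide the windows are or how many places count. The start share was 21.7% at a −log10 q of at least 3 and 22.6% at a fold of at least 5. Among alternatives chosen after the data were seen, it was 15.5% with listed starts only, 18.9% when peaks within 10 kb were counted once, 17.2% for peaks over 10 kb from LNCaP PRMT5 peaks and 19.8% without chromosome 19. The count of genes with a peak at the start, 230, fell to 144 with a 1-kb window and was 182 to 336 under the other 5 settings. The E-box share, 49.2%, was 63.8% without promoters near LNCaP peaks, 53.7% with 1 promoter per gene and 51.8% at a −log10 q of at least 3, the last 3 also chosen after the data were seen. The median fold was 6.18 at that −log10 q. Motifs in a 100-base window at summits were not run, as no genome sequence was used. With 1 library per group nothing could be left out, and unknown depth limits every statement of absence in LNCaP.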
